A study of Mus musculus with 6 samples.

Results

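Fatty acid oxidation and ketogenesis was followed through 37 genes, a set named by symbol and not by measured values, in mouse liver RNA after a diet rich in fat and sugar or after chow. All 37 were found in the count tables, among 24982 genes, and 36 had enough counts to be tested. They were split into 18 mitochondrial, 9 peroxisomal, 4 acyl-CoA thioesterase, 2 omega-oxidation and 1 ketone gene, with 3 genes of fuel use outside these classes. The study modelled the passage of diet-induced fatty liver disease to liver cancer in male C57BL/6NJ mice. It set 3 liver samples from mice kept for 54 weeks on fat-rich food and sugar water (the high fat - high sugar diet, HFHS) against 3 from mice kept for 54 weeks on chow. No transgene, deletion or drug is given for either group, and the labels give neither the age of the mice nor whether tumour was part of the tissue.

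Fatty acids enter mitochondria as carnitine esters, and each round of beta-oxidation then removes an acetyl unit by dehydrogenation, hydration, a further dehydrogenation and thiolysis. Peroxisomes shorten very long and branched chains, omega-oxidation by cytochrome P450 4A enzymes attacks the far end of the chain, and liver mitochondria turn surplus acetyl-CoA into ketone bodies for other organs. In mouse liver many of these genes are known to be switched on by fasting through nuclear receptors of the PPAR family, which sense fatty acids.

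Some members are near-identical copies, and the split of reads is uncertain where the copies are identical. The sequences printed here show places where they differ. The peroxisomal thiolases Acaa1a and Acaa1b share 96.6% of 1275 coding bases, with an identical run of 327 bases. Acot1 and Acot2 share 95.2% of 1239 aligned coding bases, with an identical run of 273 bases. The coding stretches below, from GENCODE M21 on GRCm38, are written 5′ to 3′, and capitals mark bases that differ between the copies. The Acaa1 stretch, coding bases 460 to 549, is the most different 90-base stretch of the pair, on chromosome 9.
Acaa1a: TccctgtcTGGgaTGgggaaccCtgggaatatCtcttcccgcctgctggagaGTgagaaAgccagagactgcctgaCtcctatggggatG
Acaa1b: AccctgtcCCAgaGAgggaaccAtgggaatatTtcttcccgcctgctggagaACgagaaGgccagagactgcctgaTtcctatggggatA
Acot1 is a cytosolic and Acot2 a mitochondrial acyl-CoA thioesterase, both on chromosome 12. The alignment set the start codon of Acot1 at coding base 124 of Acot2, so that Acot2 begins with 123 coding bases that Acot1 lacks. The leader is shown in lower case, followed by the first 90 bases that the copies share.
Acot2 leader: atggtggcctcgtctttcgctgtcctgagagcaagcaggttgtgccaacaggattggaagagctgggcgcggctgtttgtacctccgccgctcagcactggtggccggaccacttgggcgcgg
Acot1: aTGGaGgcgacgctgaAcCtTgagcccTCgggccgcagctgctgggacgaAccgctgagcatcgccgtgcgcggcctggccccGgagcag
Acot2: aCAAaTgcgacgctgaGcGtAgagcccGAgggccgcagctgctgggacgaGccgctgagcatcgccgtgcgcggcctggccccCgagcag

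None of the 36 tested members passed the threshold between the diets. The test was edgeR's quasi-likelihood test with Benjamini-Hochberg adjustment over 12949 genes, and the threshold an adjusted p of 0.05. Of all tested genes, 11% were higher and 3.61% lower in the HFHS group by that rule. At an unadjusted p under 0.05, 4 members lay higher (Crat, Pdk4, Vnn1 and Acot2) and 1 lower (Etfb). That is 5 of 36, against 32.3% of all tested genes (19.5% higher and 12.8% lower). DESeq2 called Crat and Pdk4 higher and Etfb lower, where it called 14% of all genes higher and 7.52% lower. With limma-voom 0 members and 10.5% of all genes were called. The median log2 fold change of the 36 was -0.17, against -0.02 over all tested genes, and 24 of the 36 were below 0. Scaled by library size only, which moved the median of all genes to 0.25, the members' median was 0.08, and Vnn1, Crat and Hadhb were called higher, as were 14.9% of all genes. The 2 diets did not overlap in 6 members: HFHS lay above chow in 3 (Hadhb, Crat and Pdk4) and below it in 3 (Acaa2, Etfa and Etfb). Of all tested genes, 21.5% lay above, 18% below and 39.5% apart in either direction.

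The 95% interval of the fold change lay within 2-fold in both directions for 27 of 36 members, among them 17 of 17 tested mitochondrial and 8 of 9 peroxisomal genes. Some came close to the bound: the lower ends for Acaa2, Echs1 and Acaa1b were 0.506, 0.508 and 0.520 times the chow level. For all tested genes this held for 8537 of 12949. The 9 whose intervals reached past 2-fold were Crat, Acot1, Acot2, Acot4, Cyp4a10, Cyp4a14, Pdk4, Vnn1 and Ppargc1a.

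**Figure D1:**
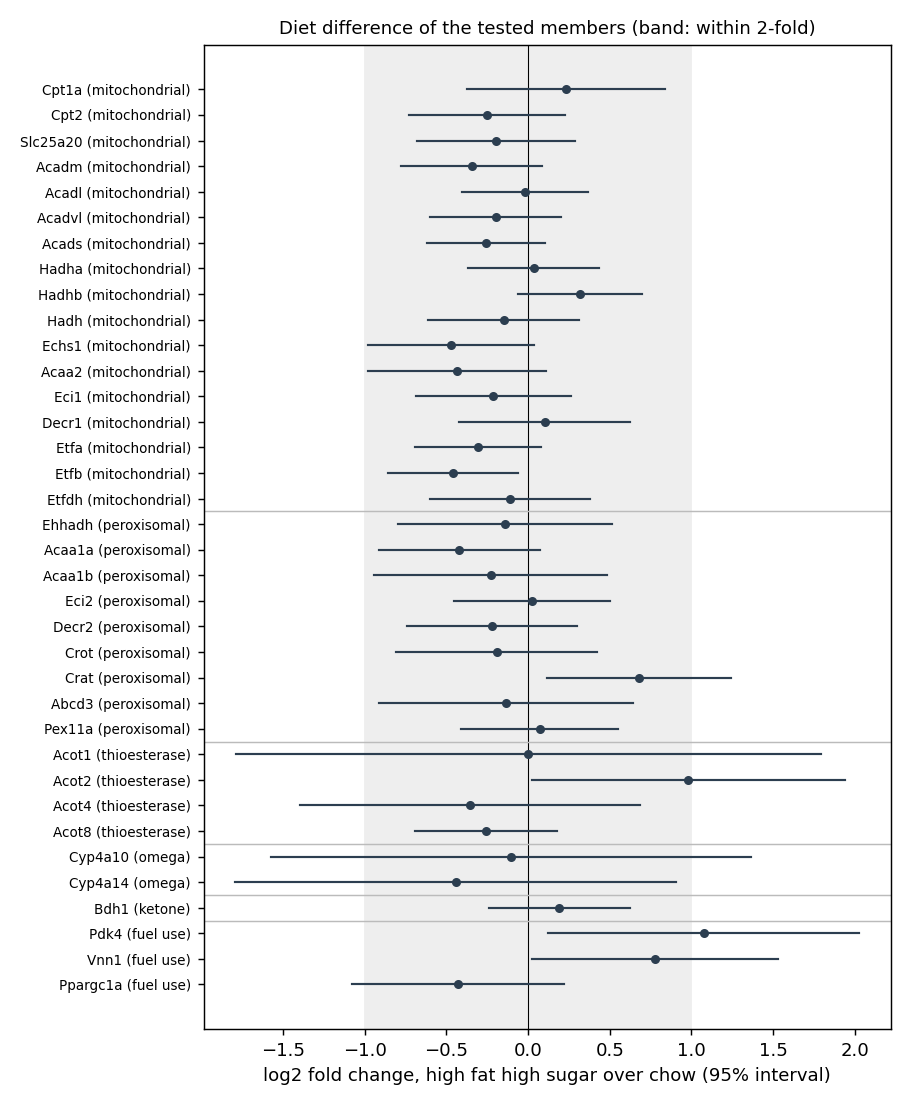
Log2 fold change of each of the 36 tested members, HFHS over chow (x axis; point, edgeR estimate; bar, 95% interval), grouped by class from top to bottom, with a grey band for changes under 2-fold. The 17 mitochondrial intervals lie inside the band, and those of Acot1, Cyp4a10 and Cyp4a14 reach past it on at least 1 side.

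Depth was 17647882 to 20585366 gene counts per HFHS library and 16565335 to 20005873 per chow library. Hepatocyte markers were abundant, except Ass1, which was under 2 CPM in every library. Albumin (Alb) made up 3.05% to 7.27% of gene counts in HFHS libraries and 6.53% to 8.04% in chow libraries. The summed level of 12 hepatocyte markers was 118560.0, 65842 and 101758 CPM in HFHS replicates 1, 2 and 3, and 122995 to 149041 CPM in chow, with 0 of 12 called higher and 1 lower. Alb was the largest part of that sum, at 71089, 24173 and 50340 CPM in HFHS and 77965, 69128 and 89699 CPM in chow replicates 1, 2 and 3. CPM are counts scaled to a common depth per library with TMM factors. Macrophage markers summed to 1057 to 2302 CPM in the HFHS group and 304 to 454 CPM in chow, and 8 of 8 were called higher. Stellate cell and fibroblast markers summed to 476 to 1036 CPM against 159 to 212 CPM, also with 8 of 8 higher. Bile duct markers summed to 171 to 287 CPM against 23.8 to 43.8 CPM, with 5 of 6 higher. Most of that sum was Spp1, at 190, 264 and 161 CPM in HFHS and 39.5, 34.3 and 18.3 CPM in chow replicates 1, 2 and 3. Endothelial markers summed to 249.6 to 296 CPM against 143 to 178 CPM, with 5 of 6 higher. Adipocyte markers summed to 7.04 to 78.1 CPM against 13.3 to 32.6 CPM, from Cidea and Adrb3, with 0 of 2 tested ones called, Adipoq at 0 counts in the HFHS libraries and Lep at 0 counts in all 6. Replicate 2 had the lowest hepatocyte and the highest macrophage, stellate and bile duct sums of the HFHS group. The part of this shift in cell markers in the members' values was not tested. In whole liver, fewer hepatocytes and less RNA per hepatocyte cannot be told apart.

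Entry into mitochondria is set by carnitine palmitoyltransferase 1, which is blocked by malonyl-CoA. Its liver form Cpt1a (chromosome 19, 3322334 to 3385733) was at 692, 609 and 1099 CPM in HFHS replicates 1, 2 and 3, and at 702, 568 and 770.4 CPM in chow replicates 1, 2 and 3. Replicate 3 of the HFHS group lay above every chow library and the other two lay within the chow range. Its log2 fold change was 0.23 ± 0.26 (SE), with a 95% interval of -0.37 to 0.84 (edgeR adjusted p = 0.574). The muscle form Cpt1b had 1, 5 and 0 counts in HFHS and 1, 4 and 1 counts in chow replicates 1, 2 and 3, and was the untested member. In GENCODE M21, 81.4% of its exon bases also belong to another gene on the same strand. A library's floor of 3 counts corresponds to 0.116 to 0.202 CPM. The skeletal muscle markers Ckm, Acta1, Myh4, Tnnt3, Mb and Myl1 summed to at most 0.155 CPM in HFHS and 0.278 CPM in chow libraries, with Mb at 0 counts in all. The carnitine carrier Slc25a20 averaged 138 ± 37.9 and 158 ± 18.3 CPM, and the inner membrane transferase Cpt2 averaged 144 ± 41.6 and 171 ± 7.20 CPM, in HFHS and chow (SD, n = 3 each). Neither passed, with overlapping groups.

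The acyl-CoA dehydrogenases, which open each round for very long, long, medium and short chains, had 0 of 4 calls. Acadm, the medium-chain enzyme (chromosome 3, 153922357 to 153944632), was at 316, 335 and 449 CPM in HFHS and 452, 433 and 512 CPM in chow replicates 1, 2 and 3. Its log2 fold change was -0.34 ± 0.19 (SE; edgeR adjusted p = 0.245). Acadl averaged 289.6 ± 45.0 CPM after HFHS and 293 ± 25.8 CPM after chow, and Acads averaged 167 ± 29.6 and 199.5 ± 0.443 CPM (SD, n = 3 each). Acadvl was at 407, 335 and 472 CPM after HFHS and 464, 479.8 and 449.9 CPM after chow in replicates 1, 2 and 3, with overlap. In GENCODE M21, 42.9% of the exon bases of Acadvl overlap a gene on the other strand, and the strand setting of the counting is not given. Of the enzymes that follow, Hadha and Hadhb form the trifunctional protein. Hadhb was at 146, 129 and 193 CPM after HFHS and 124, 126 and 125 CPM after chow in replicates 1, 2 and 3. The groups did not overlap, yet its log2 fold change of 0.32 had an interval of -0.06 to 0.70 (edgeR adjusted p = 0.223). Its partner subunit Hadha averaged 454 ± 76.1 CPM after HFHS and 443 ± 10.8 CPM after chow (SD, n = 3 each), with overlap. The hydratase Echs1 averaged 264 ± 72.1 against 365 ± 28.5 CPM, and the dehydrogenase Hadh 415 ± 79.6 against 460.4 ± 66.2 CPM. Eci1 and Decr1, which handle double bonds of unsaturated chains, had log2 fold changes of -0.21 and 0.10.

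Acaa2, Etfa and Etfb were the 3 members of 36 whose HFHS libraries all lay below chow, against 18% of tested genes. The mitochondrial thiolase Acaa2 (chromosome 18, 74779197 to 74806208) was at 868, 563 and 989 CPM after HFHS and 1099.8, 1069 and 1105 CPM after chow in replicates 1, 2 and 3. The chow libraries lay close together and the HFHS libraries apart. Its log2 fold change was -0.44 ± 0.23 (SE; edgeR adjusted p = 0.243). Etfa and Etfb are the subunits of the flavoprotein that takes electrons from the dehydrogenases. Etfb (chromosome 7, 43444083 to 43457800) was at 238, 202 and 289 CPM after HFHS and 349.9, 314 and 339 CPM after chow in replicates 1, 2 and 3. It had a log2 fold change of -0.46 with an interval of -0.86 to -0.06 (edgeR adjusted p = 0.109). It passed with DESeq2 (adjusted p = 0.0331) and without HFHS replicate 3 (edgeR adjusted p = 0.0477), its highest HFHS library. With any other library left out it did not pass (edgeR adjusted p of 0.162 to 0.259). GENCODE M21 places 58.2% of its exon bases also in another gene on the same strand. Etfa averaged 399 ± 59.1 after HFHS and 493 ± 5.45 CPM after chow (SD, n = 3 each). Etfdh, which passes the electrons on to the respiratory chain, averaged 309.8 ± 81.1 and 334 ± 22.3 CPM and overlapped.

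Peroxisomal genes likewise had 0 of 9 calls with edgeR. At an unadjusted p under 0.05, 1 was higher with edgeR, against 19.5% of all tested genes. DESeq2 called 1 higher, against 14% of tested genes, and limma-voom called 0, against 10.5% in either direction. Crat, the carnitine acetyltransferase of peroxisomes and mitochondria (chromosome 2, 30400471 to 30415813), was at 87.9, 66.4 and 113 CPM after HFHS and 65.8, 40.9 and 60.1 CPM after chow in replicates 1, 2 and 3. The groups did not overlap, though HFHS replicate 2 and chow replicate 1 nearly met. Its log2 fold change was 0.68 ± 0.24 (SE), with an interval of 0.12 to 1.25 and the smallest adjusted p of the members (edgeR, 0.0974). It passed without HFHS replicate 2 (0.87 on the log2 scale, edgeR adjusted p = 0.0407), with library size only (0.93, 0.0193) and with DESeq2 (0.68, 0.0436). HFHS replicate 2 was its lowest HFHS library, so leaving it out raised the fold change. With any other library left out Crat did not pass (edgeR adjusted p of 0.124 to 0.226). It also missed with RLE or upper-quartile scaling (edgeR adjusted p = 0.0936 and 0.0679) and with limma-voom (adjusted p = 0.1001).

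The thiolase Acaa1b had 1468, 847 and 1996 CPM after HFHS and 1633, 1641 and 1779 CPM after chow in replicates 1, 2 and 3. The HFHS libraries lay on both sides of the chow libraries. Its copy Acaa1a averaged 177 ± 46.9 against 237 ± 33.5 CPM. The summed copies, mostly Acaa1b, had a log2 fold change of -0.25 ± 0.30 (SE, edgeR adjusted p = 0.598). Acaa1a alone passed without HFHS replicate 3 (-0.67 on the log2 scale, edgeR adjusted p = 0.0435), its highest HFHS library, and with no other library left out. The HFHS libraries of the fatty acyl transporter Abcd3 likewise lay on both sides of chow, with 1313, 485 and 881 CPM after HFHS against 985, 945 and 1013 CPM after chow. Ehhadh, the hydratase and dehydrogenase of peroxisomes, averaged 467 ± 173 and 514 ± 62.4 CPM after HFHS and chow (SD, n = 3 each). Crot, which makes carnitine esters of shortened chains, averaged 458 ± 146 and 523 ± 87.0 CPM. The auxiliary enzymes Eci2 and Decr2 had log2 fold changes of 0.03 and -0.22, and Pex11a, a factor of peroxisome division, one of 0.07.

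None of the 4 thioesterases, which split acyl-CoA into free acid and coenzyme A, and neither omega-oxidation enzyme passed. Acot1, Acot2, Acot4, Cyp4a10 and Cyp4a14 spread over more than 2-fold among the libraries of each group. Cyp4a10 (chromosome 4, 115518264 to 115533649) was at 231, 187 and 783 CPM after HFHS and 428, 236 and 626 CPM after chow in replicates 1, 2 and 3. The highest library was 4.18 times the lowest in the HFHS group and 2.65 times in chow, while the group means were 401 and 429.7 CPM. Its interval of -1.57 to 1.37 on the log2 scale leaves a wide range of differences possible. Cyp4a14 was at 132, 380.4 and 522 CPM after HFHS and 488, 227 and 692 CPM after chow. The ratio of Cyp4a14 to Cyp4a10 counts was 0.572, 2.03 and 0.666 in HFHS replicates 1, 2 and 3, and 1.14, 0.962 and 1.11 in chow. These enzymes share 77.3% of their aligned coding bases, while Cyp4a10 shares 96.6% with its copy Cyp4a31 and 97.2% with Cyp4a32.

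Acot1 was at 12.4, 11.8 and 57.3 CPM after HFHS and 25.9, 13.3 and 42.1 CPM after chow in replicates 1, 2 and 3. Its mean was 27.2 ± 26.1 against 27.1 ± 14.4 CPM (SD, n = 3 each), with an interval of -1.79 to 1.79 on the log2 scale. Acot2, with the mitochondrial leader shown above, was at 11.2, 20.2 and 23.7 CPM after HFHS and 10.9, 4.73 and 12.3 CPM after chow. Replicate 1 of the HFHS group lay within the chow range, and the log2 fold change of 0.98 ± 0.40 (SE) missed the threshold (edgeR adjusted p = 0.146). With both copies summed it was 0.32 ± 0.57 (SE, edgeR adjusted p = 0.737). Acot1 had 1.11, 0.584 and 2.42 times the counts of Acot2 in HFHS replicates 1, 2 and 3, and 2.37, 2.81 and 3.415 times in chow. The sum thus carries the spread of Acot1 and does not test the value of Acot2. The peroxisomal thioesterase Acot4 was at 47.9, 63.7 and 102 CPM after HFHS and 117, 42.5 and 113 CPM after chow. Acot8, also peroxisomal, averaged 14.9 ± 3.88 and 17.7 ± 1.22 CPM and passed without HFHS replicate 3 (-0.50 on the log2 scale, edgeR adjusted p = 0.0439). HFHS replicate 3 was the highest HFHS library of Acot8, which passed with no other library left out. In Acot1, Acot2, Acot4, Cyp4a10, Cyp4a14 and Pdk4, chow replicate 2 was the lowest chow library.

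**Figure D2:**
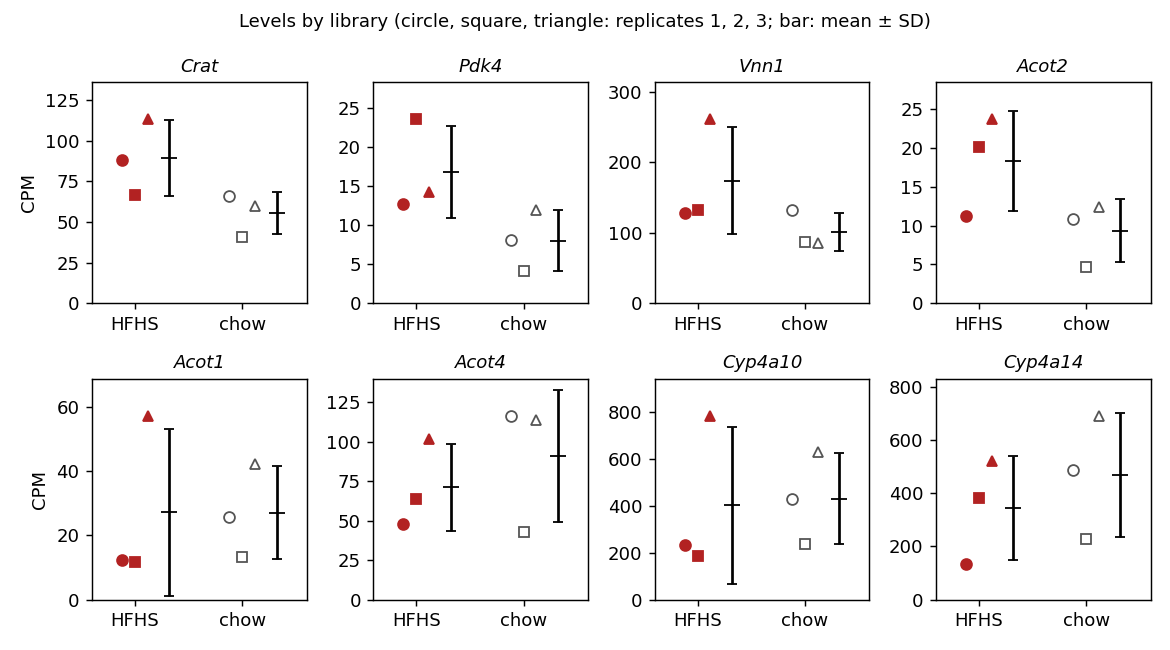
Levels in CPM (y axis, from 0) of 8 of the 9 members whose intervals reach past 2-fold (all but Ppargc1a), by library, HFHS (red) left of chow (open); circle, square and triangle are replicates 1, 2 and 3, and the bar is the mean ± SD (n = 3). In Cyp4a10 the HFHS libraries span 187 to 783 CPM, beyond the chow range of 236 to 626 CPM on both sides, while in Crat and Pdk4 the groups do not overlap.

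PPAR receptors bind repeats of AGGTCA with a single base between them. Both strands of 32 RefSeq promoter windows (GRCm38.p6, 250 bases before to 50 after the start), covering 30 of the 37 members, were searched. A repeat of AGGNCA with a single base N between the copies was in 0 of 32 member windows and in 0.381% of 32851 windows of all genes. The same repeat without its first base, tried afterwards, was in 1 member window, that of Acot4, and in 0.801% of all windows. It lay 13 to 2 bases before the start on the opposite strand, shown in capitals in the sequence at chr12:84038342-84038378 on the plus strand.
Acot4 promoter: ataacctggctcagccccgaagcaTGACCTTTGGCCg
A match describes letters only, and a window without one says nothing of binding elsewhere.

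Among ketone genes, Bdh1, which interconverts acetoacetate and 3-hydroxybutyrate (chromosome 16, 31422280 to 31458901), was at 278, 268 and 392 CPM after HFHS and 297, 263 and 261 CPM after chow in replicates 1, 2 and 3. Only replicate 3 of the HFHS group lay above the chow range, and the log2 fold change was 0.19 ± 0.19 (SE; edgeR adjusted p = 0.517). Of 8 other ketone and acetate genes, 2 rose and 0 fell with edgeR, against 11% and 3.61% of all tested genes. DESeq2 called 3 higher, against 14% of all tested genes, and limma-voom 1. Neither list holds every gene of ketogenesis, and genes outside them are not analysed here. Slc16a1, the monocarboxylate transporter that carries ketone bodies and lactate, was at 58.8, 48.7 and 50.9 CPM after HFHS and 35.1, 36.1 and 35.2 CPM after chow (log2 fold change 0.57 ± 0.11, SE; edgeR adjusted p = 0.0171). Oxct1, the enzyme of ketone use that hepatocytes are known to keep low, was at 10.2, 26.0 and 9.55 CPM against 6.12, 3.57 and 3.37 CPM (1.81 ± 0.46, SE; edgeR adjusted p = 0.0429). Its highest library, HFHS replicate 2, was also that with the highest macrophage and stellate cell sums. The part of these cells in the level of Oxct1 was not tested.

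None of the 3 genes of fuel use passed. Pdk4, a kinase that shuts pyruvate out of oxidation (chromosome 6, 5483351 to 5496309), was at 12.7, 23.6 and 14.2 CPM after HFHS and 8.06, 4.12 and 11.9 CPM after chow in replicates 1, 2 and 3. All 3 HFHS libraries lay above chow. Its log2 fold change was 1.08 ± 0.40 (SE), with an interval of 0.13 to 2.03 (edgeR adjusted p = 0.115; DESeq2 adjusted p = 0.0389). Vnn1, a pantetheinase that frees the vitamin of coenzyme A, was at 127, 133 and 261 CPM against 132, 87.1 and 84.8 CPM (0.78 ± 0.32, SE, edgeR adjusted p = 0.143). Only replicate 3 of the HFHS group lay clearly above all chow libraries, as HFHS replicate 2 and chow replicate 1 nearly met. Ppargc1a, the coactivator PGC-1 alpha, was at 18.3, 10.9 and 10.0002 CPM after HFHS and 19.9, 12.7 and 20.1 CPM after chow, with overlap (-0.43 ± 0.28, SE; edgeR adjusted p = 0.328).

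HFHS replicate 3 was the highest library of its group in 33 of 36 members, including 17 of 17 mitochondrial genes, against 33.3% of all tested genes. The exceptions were Abcd3, Pdk4 and Ppargc1a. The same held in 16 of 17 other acyl-CoA genes, 9 of 10 other omega-oxidation, 12 of 15 peroxisome biogenesis and 15 of 19 mitochondrial content genes, so it was not particular to the members. It held in 4 of 12 hepatocyte markers. In 20 of the 36 it lay above every other library, against 11.1% of tested genes. Replicate 2 was the lowest of its group in 26 of 36 members, against 36.2% of tested genes, but in 10 of 36 when libraries were scaled by size only. The count for replicate 3 was 32 under that scaling. Among chow libraries, replicate 2 was the lowest in 27 of 36 members, against 38.5% of tested genes. The median deviation of the 17 mitochondrial members from the chow mean was -0.27, -0.50 and 0.15 on the log2 scale in HFHS replicates 1, 2 and 3, and that of the 9 peroxisomal members -0.16, -0.65 and 0.25. These medians rest on TMM scaling, with factors of 1.02, 1.26 and 1.01 in HFHS replicates 1, 2 and 3. These counts were chosen after the values were seen and are descriptions, as members measured in the same library are not independent.

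The SD of log2 CPM was larger in HFHS than in chow in 33 of 36 members, against 64.8% of tested genes. It was also larger in 12 of 12 hepatocyte markers, 16 of 17 other acyl-CoA genes, 17 of 19 mitochondrial content and 13 of 15 peroxisome biogenesis genes. The median SD of the members was 0.40 after HFHS and 0.15 after chow. Over all tested genes the median SD was 0.23 and 0.16. Acads had the smallest chow SD of the members, 0.0032, against 0.251 after HFHS, and is thus an extreme. Its levels were 160.1, 141 and 199 CPM after HFHS and 199.7, 199 and 199.9 CPM after chow in replicates 1, 2 and 3. Without HFHS replicate 3, the members' median log2 fold change was -0.41, 31 of 36 were below 0, and edgeR called 3 lower (Etfb, Acaa1a and Acot8), with 11 lower at an unadjusted p under 0.05. In that fit 5.83% of all genes were called lower and 15.5% were lower at an unadjusted p under 0.05. Without HFHS replicate 2 the median was 0.01, with 18 of 36 below 0 and Crat called higher, as were 9.42% of all genes. Replicates 3 and 2 were the highest and lowest HFHS libraries in most members, so the directions of these shifts were given in advance. Without HFHS replicate 1 or any 1 chow library the median was -0.26 to -0.12, and 0 members were called.

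**Figure D3:**
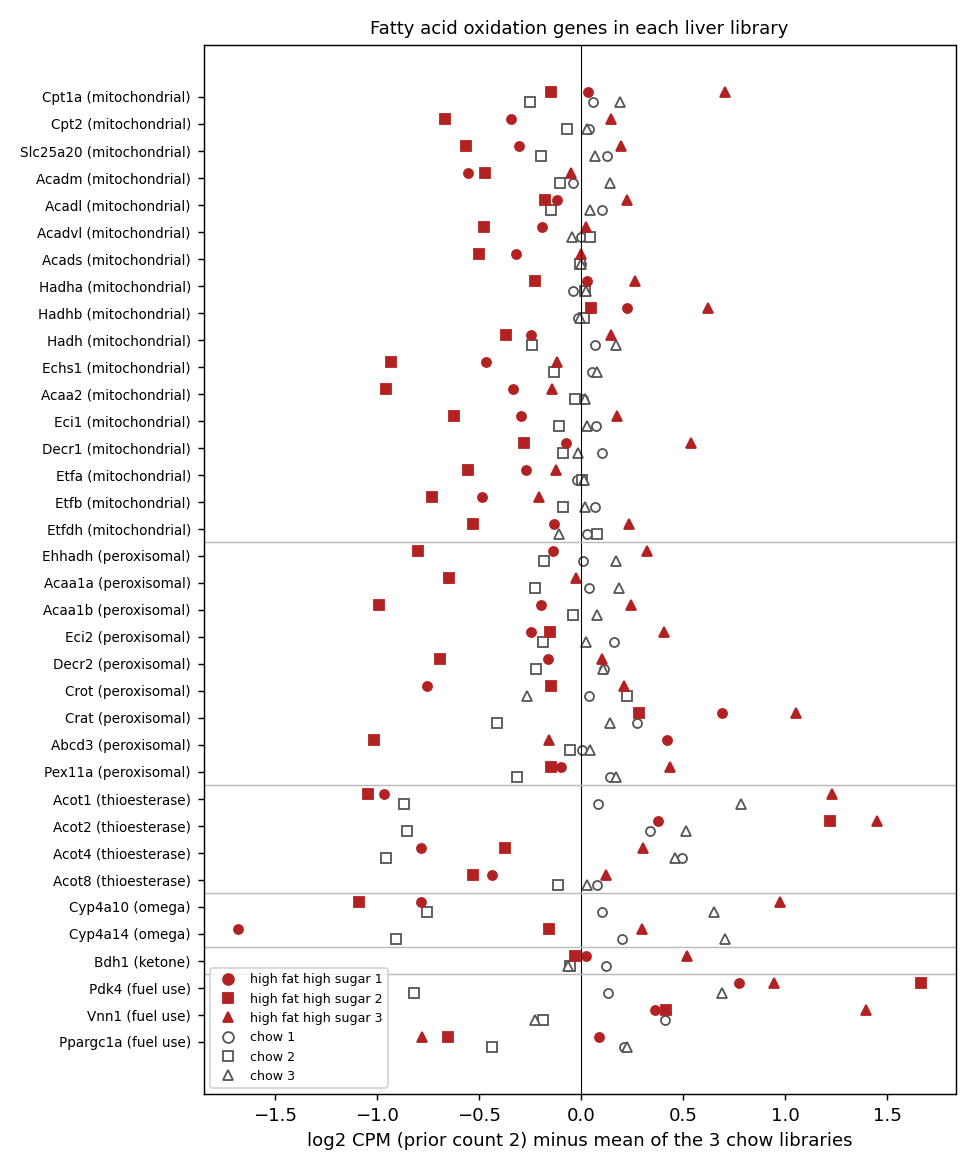
Deviation of each library from the chow mean (x axis, log2 CPM with a prior count of 2) for the 36 tested members, grouped by class; red marks are HFHS libraries, open marks chow, and circle, square and triangle are replicates 1, 2 and 3. The red triangle, HFHS replicate 3, is the rightmost red mark in 33 of 36 rows, and the open marks of most mitochondrial genes lie close together.

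Values of other lists differed between the same libraries. For 19 genes of mitochondrial content (citrate cycle, import and respiratory chain) the median deviation was -0.21, -0.42 and -0.06 in HFHS replicates 1, 2 and 3, and for 15 peroxisome biogenesis genes it was -0.28, -0.47 and -0.05. For the 12 hepatocyte markers it was -0.42, -1.19 and -0.61. By median, replicate 3 was thus below the chow mean for the hepatocyte markers and above it for the mitochondrial and peroxisomal members. For the other acyl-CoA, other peroxisomal oxidation and other omega-oxidation genes its median was -0.06, -0.01 and 0.23. Reads outside genes made up 8.86%, 10.6% and 7.74% of all counts in HFHS replicates 1, 2 and 3, and 8.48%, 10.3% and 9.61% in chow. Their part in the members' values was not tested.

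**Figure D4:**
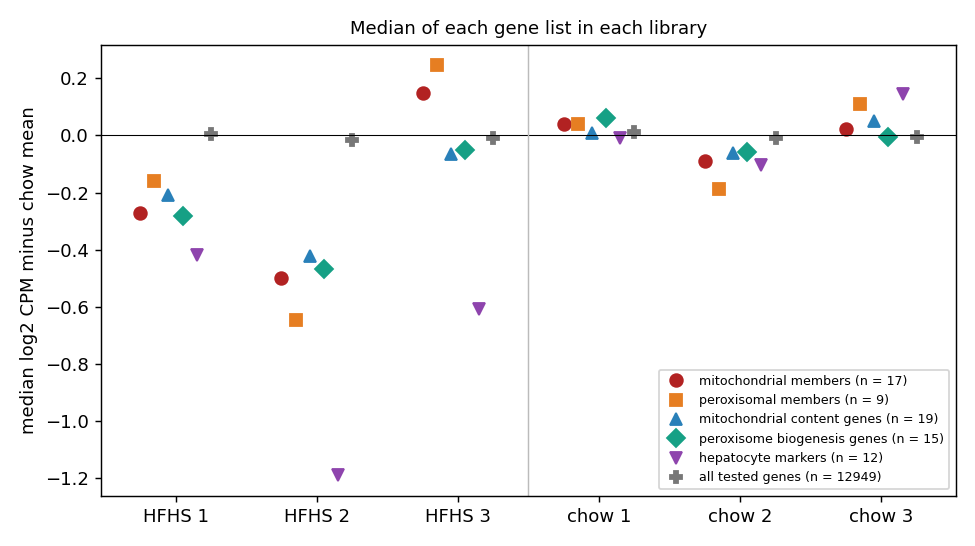
Median deviation from the chow mean (y axis, log2 CPM) of 6 gene lists in each library, the 3 HFHS libraries left of the 3 chow libraries. In HFHS replicate 3 the mitochondrial and peroxisomal members lie at 0.15 and 0.25, and the hepatocyte markers at -0.61.

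Levels between members are compared per kilobase of exon in GENCODE M21. Acaa1b was first in both groups, at 732 ± 293 CPM per kb after HFHS and 858 ± 42.0 CPM per kb after chow (SD, n = 3 each). Acaa2 followed at 532 ± 145 and 719.8 ± 12.9 CPM per kb. After HFHS these do not differ beyond their spread. Etfa (218 ± 32.2 after HFHS and 269 ± 2.97 CPM per kb after chow) and Etfb (209 ± 37.9 and 287 ± 15.9 CPM per kb) came next, changing places between the groups, within their spread after HFHS. At the low end, above Cpt1b, were Ppargc1a (1.98 ± 0.689 and 2.67 ± 0.641 CPM per kb) and Pdk4 (4.79 ± 1.68 and 2.29 ± 1.11 CPM per kb). The rank of Vnn1 was 19 after HFHS and 26 after chow. Exon lengths count every annotated isoform, which lowers the level of genes with long minor isoforms.

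Outside the members, of 17 other acyl-CoA genes, mostly mitochondrial but with the peroxisomal Nudt19 and Nudt7 among them, 4 fell and 0 rose with edgeR, against 3.61% and 11% of tested genes. DESeq2 called 6 lower, against 7.52% of tested genes, and limma-voom 4. Acadsb, a dehydrogenase for branched short chains, was at 119, 74.4 and 154 CPM after HFHS and 214, 259.7 and 231 CPM after chow in replicates 1, 2 and 3 (log2 fold change -1.02 ± 0.25, SE; edgeR adjusted p = 0.0373). Nudt19, a peroxisomal coenzyme A hydrolase, fell by 0.57, Acad10 by 0.55 and H2-Ke6, the symbol in these files for Hsd17b8 of mitochondrial fatty acid synthesis, by 0.56 on the log2 scale. Of 18 other peroxisomal oxidation genes 1 fell with edgeR and 4 with DESeq2, against 3.61% and 7.52% of tested genes, and 1 with limma-voom. The edgeR call was Pecr, an enoyl-CoA reductase, at 155, 95.2 and 159.8 CPM after HFHS and 301, 262 and 300.4 CPM after chow (-1.08 ± 0.21, SE; edgeR adjusted p = 0.0201). None of 15 peroxisome biogenesis or 19 mitochondrial content genes passed with edgeR. At an unadjusted p under 0.05, 3 and 2 of them were lower, against 12.8% of tested genes. DESeq2 called 0 and 1 lower, against 7.52% of tested genes, and limma-voom 0 and 0. The smallest p went with Pex7 and Pex13 in the first list (-0.37 and -0.32 on the log2 scale) and with Timm23 and Phb2 in the second (-0.45 and -0.40).

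Of 10 other omega-oxidation genes 1 rose and 1 fell with edgeR, against 11% and 3.61% of tested genes. DESeq2 called 1 higher and 4 lower, against 14% and 7.52% of tested genes, and limma-voom 1 and 1. Cyp4a31 was at 13.0, 13.9 and 8.60 CPM after HFHS and 3.45, 1.70 and 2.69 CPM after chow (2.18 ± 0.30, SE; edgeR adjusted p = 0.0101). As a near-identical copy of Cyp4a10 it is uncertain. The sum of Cyp4a10, Cyp4a31 and Cyp4a32 averaged 448 CPM after HFHS and 465 CPM after chow, most of it from Cyp4a10, so that it does not bear on the value of Cyp4a31. Cyp4v3, a fatty acid omega-hydroxylase, was at 353, 313 and 437 CPM against 524, 732 and 641 CPM (-0.78 ± 0.20, SE; edgeR adjusted p = 0.0418). Of 22 PPAR and fasting response genes 3 rose and 0 fell with edgeR, against 11% and 3.61% of tested genes. At an unadjusted p under 0.05, 6 were higher and 2 lower with edgeR, against 19.5% and 12.8% of tested genes. DESeq2 called 5 higher and 1 lower, against 14% and 7.52% of tested genes, and limma-voom 3 and 0. Fgf21, a hormone that PPAR signalling and cell stress are known to induce, was at 8.01, 14.3 and 9.61 CPM after HFHS and 0.612, 0.550 and 0.269 CPM after chow (4.44 ± 0.36, SE; edgeR adjusted p = 0.00536). The fatty acid receptor Cd36 was at 346, 451 and 429 CPM against 265, 159.7 and 233 CPM (0.90 ± 0.22, SE; edgeR adjusted p = 0.0357). Pdk3, another pyruvate dehydrogenase kinase, was at 1.34, 1.89 and 1.28 CPM against 0.334, 0.165 and 0.404 CPM (2.33 ± 0.41, SE; edgeR adjusted p = 0.0156).

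The 12 calls named from these lists had the same direction without each library in turn. Without chow replicate 3, Fgf21 kept its call and the other 11 lost it, with edgeR adjusted p between 0.0579 and 0.151. Lost calls came to 9 each without chow replicates 1 and 2 (0.0564 to 0.0874 and 0.0580 to 0.125), and to 4, 3 and 1 without HFHS replicates 1, 2 and 3 (0.0842 to 0.109, 0.0573 to 0.0712 and 0.0624). With library size only, Nudt19, H2-Ke6, Acad10 and Cyp4v3 were not called. Upper-quartile scaling lost Acad10 and Cyp4v3, and Oxct1 was lost with limma-voom (adjusted p = 0.0737) and with no filter on low counts (edgeR adjusted p = 0.0643).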

How the data were processed

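Liver polyA RNA of 6 samples was sequenced from libraries made with a dUTP-based stranded kit, per the labels' protocols. Per the submitters' processing notes, reads were aligned with STAR to mm10; the sources used here do not give the STAR version, the counter, its annotation or its strand setting. The deposited values are whole-number counts per gene symbol, not normalised. The rows for reads outside genes (7.74% to 10.6% of counts) and for ambiguous reads (0.615% to 0.862%) were left out.

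Groups followed the diet in the titles. The labels do not say that each sample came from its own animal, so the spread behind each p-value may be technical. The HFHS tables, not the chow tables, are named as combined. What was combined is not given, and a difference in handling cannot be told apart from diet. Genes passing filterByExpr (minimum count 10; 12949 of 17877 with at least 1 count) were scaled by TMM and tested with edgeR 4.0.16 (R 4.3.3; limma 3.58.1, DESeq2 1.42.0 as alternatives). The threshold was an adjusted p of 0.05. Standard errors are the log2 fold change over the square root of F, and 95% intervals use the fit's degrees of freedom. The tools were tested on simulated counts. Exon lengths and overlaps come from GENCODE M21. All pathway symbols of 7 further lists but 1 (109 of 110) were found. The members, lists and tests were chosen with earlier results of these data known. All members were named; from each other list, up to 4 called genes with the smallest p and the first in the minority direction, or 2 where none was called. Ass1 and the genes of the closing paragraph were named after their values were seen. Intervals cover the spread between samples, and floors counting error only.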

Additional observations from a re-analysis of the deposited data

How the results depend on the processing

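With edgeR, 0 of 36 members were called higher and 0 lower, and RLE or upper-quartile scaling, no filter, no robust estimation and limma-voom gave the same counts. With library size only, 3 members were called higher (1 mitochondrial, 1 peroxisomal), all tested genes lower were 200, and 10 members had HFHS replicate 2 lowest. DESeq2 called 2 members higher (1 peroxisomal) and 1 lower (1 mitochondrial), and 974 of all genes lower. Same-numbered samples did not deviate together (correlations of -0.25, -0.17 and 0.03); a fit with a replicate block called 1 member higher (Crat, 1 peroxisomal, adjusted p = 0.0417), 282 of all genes lower, gave Acot1 -0.25 and lost 5 of the 12 calls from other lists (Oxct1, H2-Ke6, Acadsb, Cyp4v3 and Cd36). Without each replicate in turn, 0 to 1 members were higher and 0 to 3 lower; mitochondrial members lower were 0 to 1, peroxisomal members higher 0 to 1 and lower 0 to 1. All tested genes called higher were 4 to 1664 and lower 2 to 772, the lowest without chow replicate 3 and the highest without HFHS replicate 3.

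Log2 fold changes near 0 changed sign. With library size only they were 0.051 for Slc25a20, 0.24 for Acadl, 0.050 for Acadvl, 0.11 for Hadh, 0.031 for Eci1, 0.13 for Etfdh, 0.091 for Ehhadh, 0.021 for Decr2, 0.074 for Crot, 0.084 for Abcd3 and 0.12 for Cyp4a10. Upper-quartile scaling gave 0.071 for Acadl. Acot1 was -0.0046 with RLE, -0.014 with no filter, -0.0021 with DESeq2 and -0.28 with limma-voom. Cyp4a31 alone was 2.18, and the sum with its copies, most of it Cyp4a10, was -0.052. Without each replicate in turn the ranges were -0.072 to 0.41 for Cpt1a, -0.16 to 0.069 for Acadl, -0.10 to 0.16 for Hadha, -0.18 to 0.27 for Decr1, -0.33 to 0.071 for Etfdh, -0.44 to 0.11 for Ehhadh, -0.55 to 0.049 for Acaa1b, -0.21 to 0.15 for Eci2, -0.44 to 0.0265 for Crot, -0.52 to 0.17 for Abcd3, -0.15 to 0.19 for Pex11a, -1.17 to 0.46 for Acot1, -1.05 to 0.26 for Cyp4a10 and -0.0105 to 0.30 for Bdh1. Library size only shifts all genes together; the cause of the other changes was not tested. Cpt1b lay near its floor of 3 counts, and the cause was not tested.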

Other observations

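Of 22 PPAR and fasting response genes, 10 had their highest HFHS value in replicate 3. Cd36 (346, 451 and 429 CPM in HFHS replicates 1, 2 and 3) and Lpin1 (282, 71.1 and 87.3 CPM) were among those that did not. The lipid droplet gene Cidec was at 76.6, 57.1 and 225 CPM in HFHS replicates 1, 2 and 3 and at 57.7, 34.2 and 30.4 CPM in chow, and did not pass (edgeR adjusted p = 0.112). The fatty acid binding protein Fabp1 was at 3908, 1009 and 5399 CPM after HFHS and 4175, 4179 and 3153 CPM after chow, and the droplet coat gene Plin2 at 646, 416 and 871 CPM against 592, 467 and 358 CPM. The acyl-CoA synthetase Acsl1, which activates fatty acids before oxidation, was at 1083, 615 and 1593 CPM against 1371, 1317 and 1676 CPM. Angptl4, a lipase inhibitor known as a PPAR target, varied less among HFHS libraries, at 75.2, 81.6 and 90.3 CPM after HFHS and 117, 74.4 and 127 CPM after chow. Fgf21 was highest in HFHS replicate 2. These genes were chosen after their values were seen, and Cidec, Fabp1, Plin2, Acsl1 and Angptl4 did not pass with edgeR.

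The urea cycle gene Ass1, included as a hepatocyte marker, was at 0.620, 0.115 and 0.447 CPM after HFHS and 1.17, 0.990 and 1.95 CPM after chow, while Cps1, another enzyme of the cycle, was at 1543 to 4875 CPM and 4359 to 5498 CPM. The cause of the low Ass1 counts in every library was not tested.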
